A study of Homo sapiens with 8 samples.

Results

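Protein acetylation is set by enzymes that add acetyl groups to lysine and enzymes that take them off. The genes described here are 30 such enzymes: 12 acetyltransferases, the 11 zinc-dependent histone deacetylases HDAC1 to HDAC11, and the 7 NAD-dependent sirtuins SIRT1 to SIRT7. They were chosen by name, as the inhibitor targets EP300 and CREBBP with the other histone acetyltransferases and all deacetylases. The deposited table listed 189 isoforms of them among 74209 transcripts of 19431 genes that could be named. RNA-seq libraries had been made from LNCaP-FGC, an androgen-dependent line of human prostate carcinoma, 24 h after the start of treatment. The 4 groups received I-CBP112 and A-485 together, A-485 alone, I-CBP112 alone, or the solvent DMSO, with 2 libraries each, numbered 1 and 2. A-485 blocks the acetyltransferase site of p300 and CBP, and I-CBP112 blocks their bromodomain, the module that binds acetylated lysine. The series asked how blocking these sites, singly or together, changes transcription. The sources used here give no dose, all groups were 1 cell line, and nothing in the labels said that libraries came from separate cultures, so p-values measure only the spread between these libraries, which may be technical.

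The p300 and CBP proteins, encoded by EP300 and CREBBP, are large coactivators that are recruited by many transcription factors and acetylate histones at enhancers and promoters. GCN5 (KAT2A) and PCAF (KAT2B) are a second pair of closely related acetyltransferases, which work as the catalytic subunit of the SAGA and ATAC complexes and carry a bromodomain of their own. The MYST family (KAT5, KAT6A, KAT6B, KAT7 and KAT8) acetylates mainly histones H4, H2A and H3 in complexes with scaffold and reader subunits. Class I deacetylases (HDAC1, HDAC2, HDAC3 and HDAC8) act mostly in nuclear corepressor complexes, class IIa enzymes shuttle between nucleus and cytoplasm, class IIb enzymes are largely cytoplasmic, and the sirtuins couple deacylation to the consumption of NAD.

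The values were FPKM, that is fragments per kilobase of the transcript for each 1e+06 fragments of the library, summed over isoforms and scaled between libraries. A scaled FPKM is a level per length, so it can be set beside that of another gene. The libraries differed by replicate number in how many of their fragments lay on the listed transcripts. Summed FPKM ran from 696917 to 808443 in the replicate 1 libraries and from 181486 to 408673 in the replicate 2 libraries. An estimated 14.2 to 30.2 M fragments (M for 1e+06) lay on the listed transcripts in replicate 1 and 4.13 to 11.9 M in replicate 2. FPKM were normalized to estimated totals of 17.9 to 36.7 M fragments in replicate 1 and 21.6 to 43.1 M in replicate 2. These totals did not follow the replicate number. Luminal prostate markers were present in all 8 libraries, with HOXB13 at 209.9 and 169 scaled FPKM with both compounds, 239 and 167 with A-485, 188 and 165 with I-CBP112, and 283 and 181 with DMSO. TP63, PTPRC and CD3E, markers of basal, blood and T cells, were listed at 0 in all libraries. The macrophage marker CD68 lay between 2.12 and 5.88 scaled FPKM in the 4 libraries with A-485 and between 1.43 and 2.61 in the 4 without, and the endothelial VWF between 1.01 and 7.78 with and between 1.67 and 3.45 without. The stromal genes COL3A1 and DCN stayed at or below 0.413 scaled FPKM, while COL1A1 lay between 9.27 and 11.6 in the 4 libraries with A-485 and between 3.48 and 6.12 in the 4 without. The basal keratin KRT5 reached 14.0 in replicate 2 with I-CBP112 and 6.64 in replicate 2 with DMSO. In the replicate 1 libraries KRT5 stayed at or below 0.597. KRT14 stayed at or below 1.41 in all libraries. The part of these markers in the values below was not tested.

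The 4 promoter windows shown here belong to the inhibitor targets and to the related pair GCN5 and PCAF. A link between these windows and the values below was not tested. Each window is the 250 bases before the gene's start in RefSeq on GRCh38.p14, written 5′ to 3′ on the gene's strand, and capitals mark the GC box GGGCGG on either strand. EP300 lies on the plus strand at chr22:41092342-41092591, CREBBP on the minus strand at chr16:3880714-3880963 (the first listed of its 2 windows), KAT2A on the minus strand at chr17:42121368-42121617 and KAT2B on the plus strand at chr3:20040196-20040445.
EP300: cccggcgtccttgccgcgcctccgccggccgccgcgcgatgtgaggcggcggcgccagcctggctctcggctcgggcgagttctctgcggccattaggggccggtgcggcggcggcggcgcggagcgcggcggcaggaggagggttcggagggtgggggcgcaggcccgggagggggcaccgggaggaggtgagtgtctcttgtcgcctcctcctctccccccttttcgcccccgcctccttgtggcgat
CREBBP: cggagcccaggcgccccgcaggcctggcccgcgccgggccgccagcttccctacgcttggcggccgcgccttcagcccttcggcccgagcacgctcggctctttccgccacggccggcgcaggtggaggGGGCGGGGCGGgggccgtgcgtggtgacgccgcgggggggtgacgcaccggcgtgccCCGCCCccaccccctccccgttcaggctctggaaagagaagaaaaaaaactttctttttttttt
KAT2A: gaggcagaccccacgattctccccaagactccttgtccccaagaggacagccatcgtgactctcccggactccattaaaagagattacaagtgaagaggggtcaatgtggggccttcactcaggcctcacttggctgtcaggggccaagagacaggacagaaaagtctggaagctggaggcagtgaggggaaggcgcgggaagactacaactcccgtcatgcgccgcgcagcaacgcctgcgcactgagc
KAT2B: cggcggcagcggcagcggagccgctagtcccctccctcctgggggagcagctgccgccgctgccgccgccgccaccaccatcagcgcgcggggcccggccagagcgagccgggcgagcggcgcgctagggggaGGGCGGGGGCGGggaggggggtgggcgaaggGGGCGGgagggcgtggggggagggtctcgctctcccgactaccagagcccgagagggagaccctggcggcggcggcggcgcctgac

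The GC box occurred 3 times in the CREBBP window and 3 times in the KAT2B window, and no such letters stood in the windows of EP300 and KAT2A. The other CREBBP window, which lies downstream of the one printed, held it 4 times and was 84% G or C. The windows were 76.8% G or C for EP300, 72.4% for CREBBP, 58.8% for KAT2A and 80.8% for KAT2B, where the mean over 35116 RefSeq windows of this length was 57.2%. Of the 26 members with a window, 15 had a GC box in at least 1 of them (22 of 44 member windows), against 42.6% of all windows. KAT6A, KAT8, HDAC5 and SIRT7 were not matched. The same windows were searched on both strands for 4 other motifs, given as the share of all windows and the number of 44 member windows. A cyclic AMP response element (TGACGTCA) stood in 1.65% and in 1, and an E-box (CACGTG) in 6.34% and in 4. The CCAAT letters stood in 32% and in 11 (of 8 members), and an ETS site (CCGGAAG) in 8.52% and in 8. None of these 4 stood in the 4 windows printed.

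All but 1 of the genes were detected in LNCaP cells. Of the 30 genes, 29 reached the minimum for testing, a scaled FPKM of 1 in at least 2 libraries. HDAC9, a class IIa enzyme best known from muscle and brain, was listed at 0 in both DMSO libraries and stayed at or below 0.102 scaled FPKM elsewhere. With DMSO the acetyltransferase levels began with KAT5, the catalytic subunit of the TIP60 complex, at 84.7 ± 10.7 scaled FPKM (SD, n = 2), and KAT2A at 57.2 ± 13.9. KAT8, the histone H4 acetyltransferase MOF, followed at 28.98 ± 2.04 and KAT7, the HBO1 enzyme of replication origins, at 28.5 ± 6.79, a pair that did not differ beyond the spread of 2 libraries. CREBBP at 9.30 ± 3.95 and EP300 at 8.96 ± 2.12 did not differ beyond it either. KAT2B, at 3.35 ± 0.0709, had the second lowest level of the 29 with SIRT4, a mitochondrial sirtuin, below it at 1.36 ± 0.436, and TAF1, the largest TFIID subunit, had a nearly equal mean of 3.36 ± 1.44.

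Among the deacetylases the order with DMSO was led by HDAC1 at 112.5 ± 13.2 scaled FPKM, HDAC2 at 66.5 ± 17.6, the tubulin deacetylase SIRT2 at 60.1 ± 28.5 and HDAC3 at 50.4 ± 15.5. The intervals of 1 SD of HDAC2, SIRT2 and HDAC3 overlapped. SIRT3, the main mitochondrial deacetylase, stood at 39.7, HDAC11, the only class IV enzyme, at 30.5, the chromatin-bound SIRT6 at 33.4 and 26.7 in its 2 libraries, and the mitochondrial desuccinylase SIRT5 at 29.3. HDAC6 (23.0), SIRT7 (16.2), HDAC5 (15.9), HDAC8 (15.5), HDAC7 (14.0), HDAC10 (8.38), SIRT1 (7.18) and HDAC4 (3.83) completed the order of mean scaled FPKM with DMSO. Between the lowest and the highest of the 8 libraries the level varied 1.29-fold for SIRT7, the steadiest of the 29, and 4.07-fold for HDAC4. Short isoforms carried much of 2 of these sums: KAT5-213, of 709 bases, held 28.6 to 49.8% of the KAT5 level and HDAC6-207, of 618 bases, held 53.3 to 96.7% of the HDAC6 level.

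**Figure D1:**
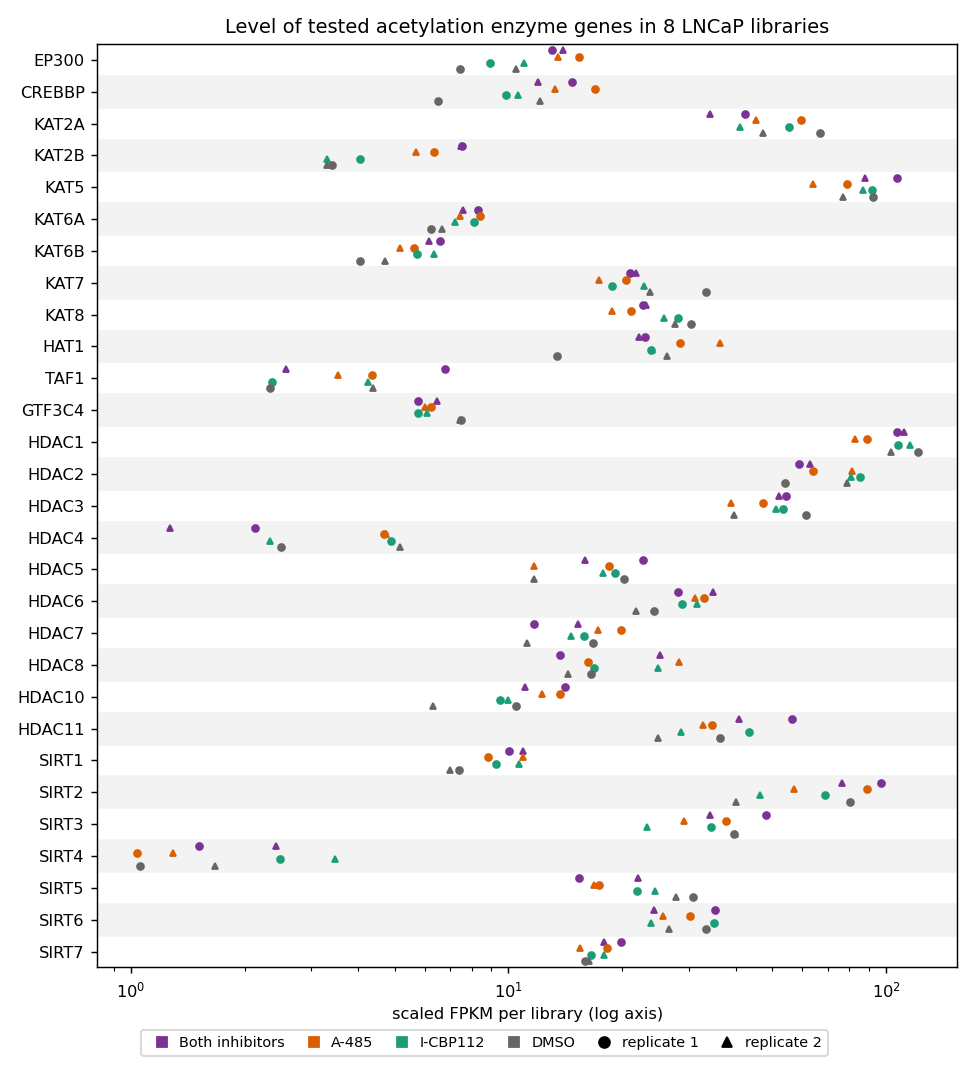
Scaled FPKM (log axis) of the 29 tested genes in each of the 8 libraries, with colours for the 4 groups, circles for replicate 1 and triangles for replicate 2. HDAC1 was highest with DMSO at a mean of 112.5 and SIRT4 lowest at 1.36, and the 4 libraries with A-485 lay above the 4 without for EP300, KAT2B and HDAC10.

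The clearest change belonged to PCAF. KAT2B stood at 7.53 and 7.51 scaled FPKM in the 2 libraries with both compounds, at 6.36 and 5.68 with A-485, at 4.04 and 3.30 with I-CBP112, and at 3.40 and 3.30 with DMSO. Every library with A-485 was above every library without it, and the 2 libraries with both compounds were above the 2 with A-485 alone. The log2 fold change was 0.97 ± 0.18 with both compounds against DMSO (SE, n = 2 per group; limma, adjusted p = 0.015). Averaged over the absence and presence of I-CBP112, the change with A-485 was 0.78 ± 0.13 (limma, adjusted p = 0.00927). With A-485 alone against DMSO it was 0.69 ± 0.18 and was not called (limma, adjusted p = 0.0682), but was when the replicate number was added as a block (limma, adjusted p = 0.0400). With I-CBP112 alone the difference was 0.10 ± 0.18 (limma, adjusted p = 0.879), with a 95% interval from -0.32 to 0.51. Both compounds against I-CBP112 alone gave 0.87 ± 0.18 (limma, adjusted p = 0.0519; 0.0335 with the block). Both compounds against A-485 alone gave 0.28 ± 0.18, with a 95% interval from -0.13 to 0.70, and the interaction was 0.18 ± 0.26, so no departure from the sum of the single changes was detectable. In bulk RNA, a change in how many cells hold a transcript and a change in its amount per cell cannot be told apart. The call against DMSO rested on both libraries of the combination: adjusted p was 0.115 without its replicate 1 and 0.103 without its replicate 2 (limma), with log2 fold changes of 0.97 and 0.99. Without replicate 1 of the combination, the averaged change with A-485 had an adjusted p of 0.0504 (limma). The table listed 1 isoform of KAT2B, whose own test over all isoforms gave no call.

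GCN5, the close relative of PCAF, had negative log2 fold changes in the 3 comparisons with DMSO. KAT2A stood at 42.3 and 34.1 scaled FPKM with both compounds, at 59.4 and 45.4 with A-485, at 55.2 and 41.1 with I-CBP112, and at 67.0 and 47.3 with DMSO. In each group the replicate 1 library was the higher, and within each replicate number the combination was lowest and DMSO highest. The log2 fold change with both compounds was -0.56 ± 0.26 and was not called without the block (limma, adjusted p = 0.207), but was with it (limma, adjusted p = 0.0255). On values with no scaling between libraries its sign turned, to 0.19, where the median of all genes was 0.58. With 1 library left out the change ran from -0.76 to -0.31. GENCODE places 405 exon bases of KAT2A under the same-strand gene AC099811.2, so fragments there may belong to either.

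The genes of the inhibitor targets had higher values in the libraries with A-485 but were not called. EP300 stood at 13.05 and 13.95 scaled FPKM with both compounds, at 15.3 and 13.5 with A-485, at 8.95 and 11.0 with I-CBP112, and at 7.46 and 10.5 with DMSO. All 4 libraries with A-485 were above all 4 without. The log2 fold change was 0.56 ± 0.21 with both compounds (limma, adjusted p = 0.127), 0.64 ± 0.21 with A-485 (0.106) and 0.15 ± 0.21 with I-CBP112 (0.825) against DMSO. Averaged over I-CBP112, the change with A-485 was 0.53 ± 0.15 (limma, adjusted p = 0.0587), which was called with the replicate block (limma, adjusted p = 0.0325). CREBBP stood at 14.7 and 12.0 scaled FPKM with both compounds, at 16.9 and 13.3 with A-485, at 9.85 and 10.6 with I-CBP112, and at 6.50 and 12.1 with DMSO. The 2 DMSO libraries lay far apart, and the second reached into the range of the combination. CREBBP had log2 fold changes of 0.53 ± 0.27 with both compounds (limma, adjusted p = 0.256), 0.69 ± 0.27 with A-485 (0.165) and 0.18 ± 0.27 with I-CBP112 (0.848). Its averaged change with A-485 was 0.52 ± 0.19 (limma, adjusted p = 0.126), and with the block the adjusted p was 0.101 (limma). For this averaged change limma on approximate fragments called CREBBP (adjusted p = 0.0401) and EP300 (0.0276), among 2429 genes. Without DMSO replicate 2 the log2 fold change of CREBBP was 0.97 with both compounds and 1.12 with A-485, and that of EP300 was 0.89 with A-485. Without DMSO replicate 1 the log2 fold change of CREBBP was 0.12 with both compounds and 0.27 with A-485. The 2 genes had no detectable difference between both compounds and A-485 alone, at -0.09 for EP300 (95% interval -0.56 to 0.39) and -0.16 for CREBBP (-0.79 to 0.47).

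Of the 29 members tested, KAT2B was thus the only one called with both compounds against DMSO, where 10.3% of all 11876 genes were called. Of all genes, 4.68% were called with A-485 alone and 0 members were, while 9 members and 2988 of the 11876 genes had an unadjusted p under 0.05. Limma on approximate fragments (voom) called EP300, KAT2B and SIRT5 there, among 1897 genes. With 1 library left out, the number of genes called with A-485 alone ran from 20 without A-485 replicate 2 to 1351 without DMSO replicate 2, against 556 with all, and every library left out moved it by more than 1.5 times. With both compounds it was 1224 with all libraries, 283 without replicate 1 of the combination, 298 without its replicate 2, 811 without DMSO replicate 1, and between 912 and 1261 otherwise. For the change with A-485 averaged over both levels of I-CBP112 it was 1200, between 406 and 737 without any 1 library of a treated group, and 946 and 1718 without DMSO replicates 1 and 2. For I-CBP112 against DMSO limma called 0% of genes and 0 members, with an unadjusted p under 0.05 for 1317 genes and 2 members, and voom called 1 gene and no member. For the change with A-485 averaged over I-CBP112 the share of all genes was 10.1%, with 1 member. With the replicate block the members called numbered 4 with both compounds (19% of all genes), 3 with A-485 (13.3%), 0 with I-CBP112 (0.00842%) and 5 for the averaged change with A-485 (19.1%). No member was called for both compounds against A-485 (0.808% of genes), both against I-CBP112 (2.17%), A-485 against I-CBP112 (0.825%), the averaged change with I-CBP112 (1.38%) or the interaction (0%). With the block KAT2B was called for both compounds against I-CBP112 (5.24% of genes), and no member in the other 4 of these comparisons (1.44%, 2.55%, 2.58% and 0.0926% of genes). Without it 1, 1, 4, 3 and 0 members had an unadjusted p under 0.05, beside 1412, 1830, 1680, 1638 and 1055 of all genes, and voom called 0 members except KAT2B for both compounds against I-CBP112. The shares of members called thus lay near those of all genes or below them.

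In the 3 comparisons with DMSO more members had a positive than a negative log2 fold change, and no test of the set was run. With both compounds against DMSO 19 of 29 had a positive log2 fold change, at a median of 0.24, against 51.2% of all genes at a median of 0.02. With A-485 alone these were 17 of 29 at 0.16, against 49.3% of all genes at -0.01, and with I-CBP112 alone 18 of 29 at 0.10, against 47.8% at -0.02. These 3 comparisons share the DMSO libraries. Each member median lay between the quartiles of all genes, which were -0.36 and 0.33 with both compounds. None of the 29 members changed beyond 1 on the log2 scale in any of them, where 8.32%, 6.59% and 2% of all genes did with both, A-485 and I-CBP112. The median size of the change with both compounds, whatever its sign, was 0.32 over members and 0.34 over all genes.

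**Figure D2:**
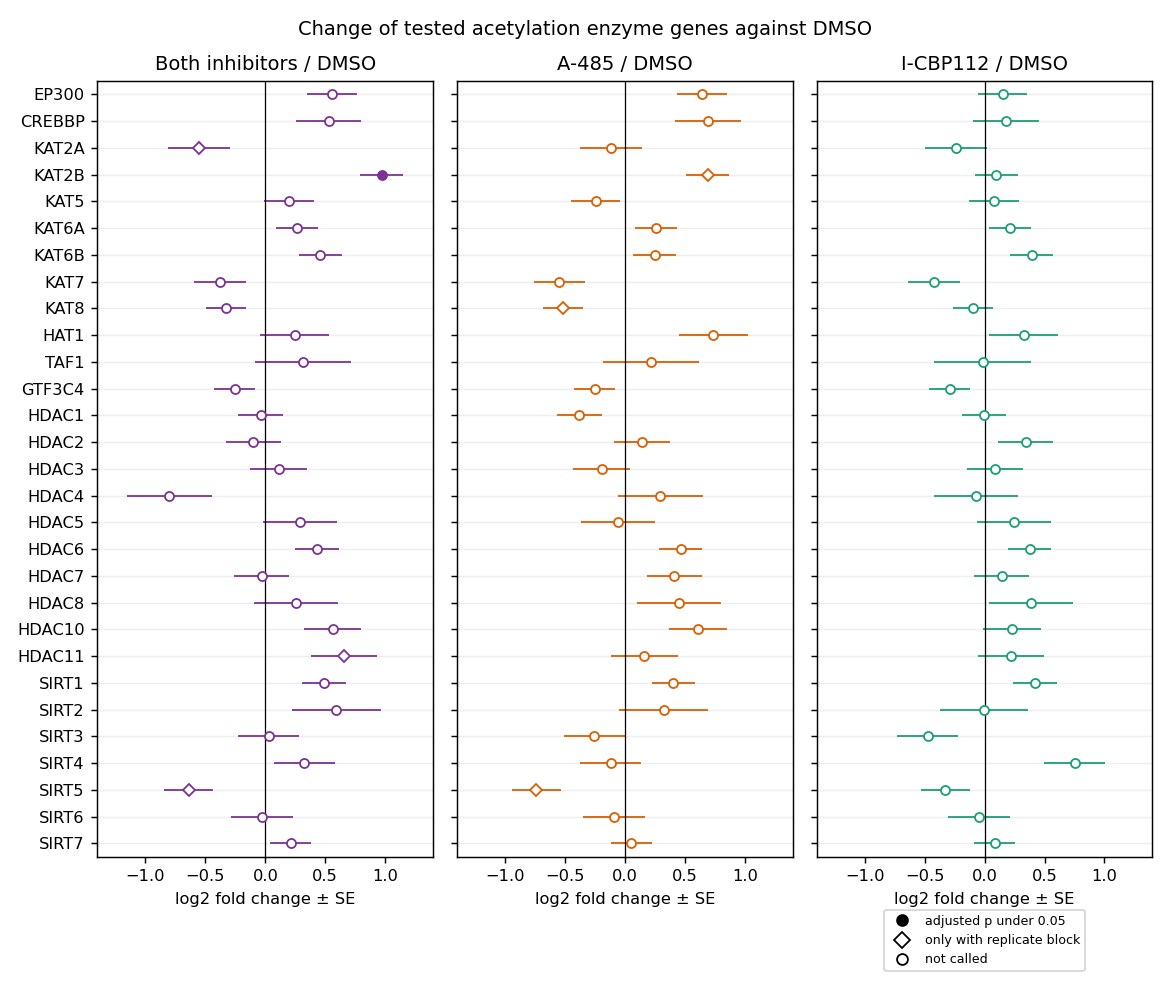
Log2 fold change ± SE (limma, n = 2 libraries per group) of the 29 genes with both compounds, A-485 alone and I-CBP112 alone against DMSO. Filled circles mark an adjusted p under 0.05, diamonds genes called only with the replicate block; KAT2B with both compounds, at 0.97, is the 1 filled circle.

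In the MYST family no gene was called without the block, and KAT8 was called with it. KAT8 stood at 22.7 and 23.1 scaled FPKM with both compounds, at 21.1 and 18.8 with A-485, at 28.1 and 25.9 with I-CBP112, and at 30.4 and 27.5 with DMSO. All 4 libraries with A-485 were below all 4 without. The log2 fold change was -0.52 ± 0.17 with A-485 (limma, adjusted p = 0.107; 0.0452 with the block) and -0.32 ± 0.17 with both compounds (0.253; 0.124 with the block). The averaged change with A-485, -0.37 ± 0.12 (limma, adjusted p = 0.0863; 0.0344 with the block), turned to 0.19 on unscaled values. The unscaled median of all genes was 0.45 there. KAT7 was at -0.55 ± 0.21 with A-485 and -0.38 ± 0.21 with both (limma, adjusted p = 0.159 and 0.296). The 6 treated libraries ran from 17.4 to 22.9 scaled FPKM, below both DMSO libraries at 33.3 and 23.7. How many of all genes set both DMSO libraries apart from the treated ones was not counted, so such orders here and below are descriptions only. KAT6A and KAT6B, the MOZ and MORF enzymes, had positive log2 fold changes in each comparison with DMSO, from 0.21 to 0.26 and from 0.25 to 0.46, and their DMSO libraries were the lowest of the 8. KAT5 lay at 0.20 ± 0.21 with both compounds and -0.24 ± 0.21 with A-485. The KAT5 exons share 1439 bases with RNASEH2C on the other strand, and it is not given in the sources used here whether the counting used strand.

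The 3 other acetyltransferases were not called in any comparison. HAT1, which acetylates newly made histone H4 in the cytoplasm, stood at 22.9 and 22.1 scaled FPKM with both compounds, at 28.4 and 36.3 with A-485, at 23.8 and 24.0 with I-CBP112, and at 13.4 and 26.3 with DMSO. DMSO replicate 1 was the lowest library and DMSO replicate 2 lay within the range of the treated ones. With A-485 the log2 fold change was 0.74 ± 0.29 (limma, adjusted p = 0.158), and it was 1.23 without DMSO replicate 2. TAF1 varied 2.90-fold over the 8 libraries and had an SE of 0.40 in each comparison of 2 groups. GTF3C4, a subunit of the RNA polymerase III factor TFIIIC, lay between 5.75 and 6.47 scaled FPKM in the 6 treated libraries, against 7.48 and 7.46 with DMSO, at log2 fold changes from -0.29 to -0.25 (limma, adjusted p from 0.372 to 0.570).

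With both compounds the class I deacetylases HDAC1, HDAC2, HDAC3 and HDAC8 had log2 fold changes from -0.10 to 0.26 (median 0.04), and the smallest adjusted p was 0.678 (limma). HDAC1, the most abundant of the 30, stood at 107 and 111 scaled FPKM with both compounds, at 89.1 and 82.8 with A-485, at 108 and 116 with I-CBP112, and at 122 and 103 with DMSO. The A-485 libraries were the lowest, at a log2 fold change of -0.38 ± 0.19 (limma, adjusted p = 0.242). HDAC8 shares 1193 exon bases with the same-strand gene AL133500.1, and its replicate 2 libraries ran higher than their replicate 1 partners in the 3 treated groups.

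Among class IIa enzymes HDAC4 had the widest spread. HDAC4, which represses MEF2 targets, stood at 2.14 and 1.27 scaled FPKM with both compounds, at 4.67 and 4.74 with A-485, at 4.88 and 2.33 with I-CBP112, and at 2.50 and 5.16 with DMSO. The combination held the 2 lowest libraries. Its log2 fold change was -1.10 ± 0.35 for both compounds against A-485 alone (limma, adjusted p = 0.265), -0.80 ± 0.35 for both against DMSO (0.188) and -1.03 in the interaction, none of them called with or without the block. HDAC5 and HDAC7 lay between -0.06 and 0.41 in the 3 comparisons with DMSO. In class IIb, HDAC10 had its 4 libraries with A-485 above the 4 without, at 14.1 and 11.1 scaled FPKM with both compounds, 13.7 and 12.3 with A-485, 9.49 and 9.95 with I-CBP112, and 10.4 and 6.32 with DMSO. The averaged change with A-485 was 0.47 (limma, adjusted p = 0.117; 0.0538 with the block), and it was 0.63 without DMSO replicate 1. HDAC10 shares 2763 exon bases with the same-strand kinase gene MAPK12, so its value is uncertain. HDAC6, the tubulin deacetylase, was at 0.43 ± 0.18 with both compounds, 0.46 ± 0.18 with A-485 and 0.38 ± 0.18 with I-CBP112 (limma, adjusted p from 0.160 to 0.487), with both DMSO libraries below the 6 treated ones.

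HDAC11 stood at 56.5 and 40.7 scaled FPKM with both compounds, at 34.7 and 32.8 with A-485, at 43.2 and 28.6 with I-CBP112, and at 36.3 and 24.8 with DMSO. The combination was highest within each replicate number, and its replicate 2 library lay below I-CBP112 replicate 1. With both compounds the log2 fold change was 0.66 ± 0.28 (limma, adjusted p = 0.168), called only with the block (limma, adjusted p = 0.0310), and it ran from 0.43 to 0.92 with 1 library left out.

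Of the sirtuins, SIRT5 had the most negative change with both compounds and with A-485. SIRT5 stood at 15.4 and 22.0 scaled FPKM with both compounds, at 17.4 and 16.9 with A-485, at 22.0 and 24.4 with I-CBP112, and at 30.9 and 27.8 with DMSO. The DMSO libraries were above the 6 treated ones, and the libraries with A-485 met those with I-CBP112 at 22.0. Relative to DMSO the log2 fold change was -0.64 ± 0.20 with both compounds (limma, adjusted p = 0.0853; 0.0480 with the block) and -0.74 ± 0.20 with A-485 (0.0754; 0.0403 with the block). With I-CBP112 the change was -0.33 ± 0.20 (limma, adjusted p = 0.593). Unscaled values turned the sign of the change with both compounds, to 0.08, where the median of all genes was 0.58. The scaled change was -0.39 without replicate 1 of the combination and -0.87 without its replicate 2. The SIRT5 exons share 1045 bases with AL441883.1 on the other strand. SIRT2 stood at 97.0 and 76.3 scaled FPKM with both compounds, at 88.9 and 56.9 with A-485, at 68.9 and 46.3 with I-CBP112, and at 80.3 and 40.0 with DMSO. Replicate 1 was higher in each group, and the averaged change with A-485, 0.46 ± 0.26, was called only with the block (limma, adjusted p = 0.291; 0.0408 with the block). It was 0.23 without DMSO replicate 2 and 0.70 without DMSO replicate 1.

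The remaining sirtuins were not called with or without the block. SIRT1, the nuclear enzyme that deacetylates p53 and FOXO factors, had log2 fold changes of 0.49 ± 0.18 with both compounds, 0.40 ± 0.18 with A-485 and 0.42 ± 0.18 with I-CBP112 (limma, adjusted p from 0.127 to 0.449). The 6 treated libraries ran from 8.83 to 10.9 scaled FPKM, above both DMSO libraries at 7.37 and 6.98. Over all genes this order was not counted. SIRT4 was at 1.52 and 2.42 scaled FPKM with both compounds, 1.03 and 1.29 with A-485, 2.48 and 3.47 with I-CBP112, and 1.05 and 1.67 with DMSO. Both I-CBP112 libraries were the highest, at a log2 fold change of 0.75 ± 0.26 against DMSO (limma, adjusted p = 0.359), and the lowest count behind SIRT4 was about 4.04 fragments, in DMSO replicate 2. SIRT3 had -0.48 ± 0.25 with I-CBP112 and 0.03 ± 0.25 with both compounds, and SIRT6 and SIRT7 lay between -0.09 and 0.21 in the 3 comparisons.

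**Figure D3:**
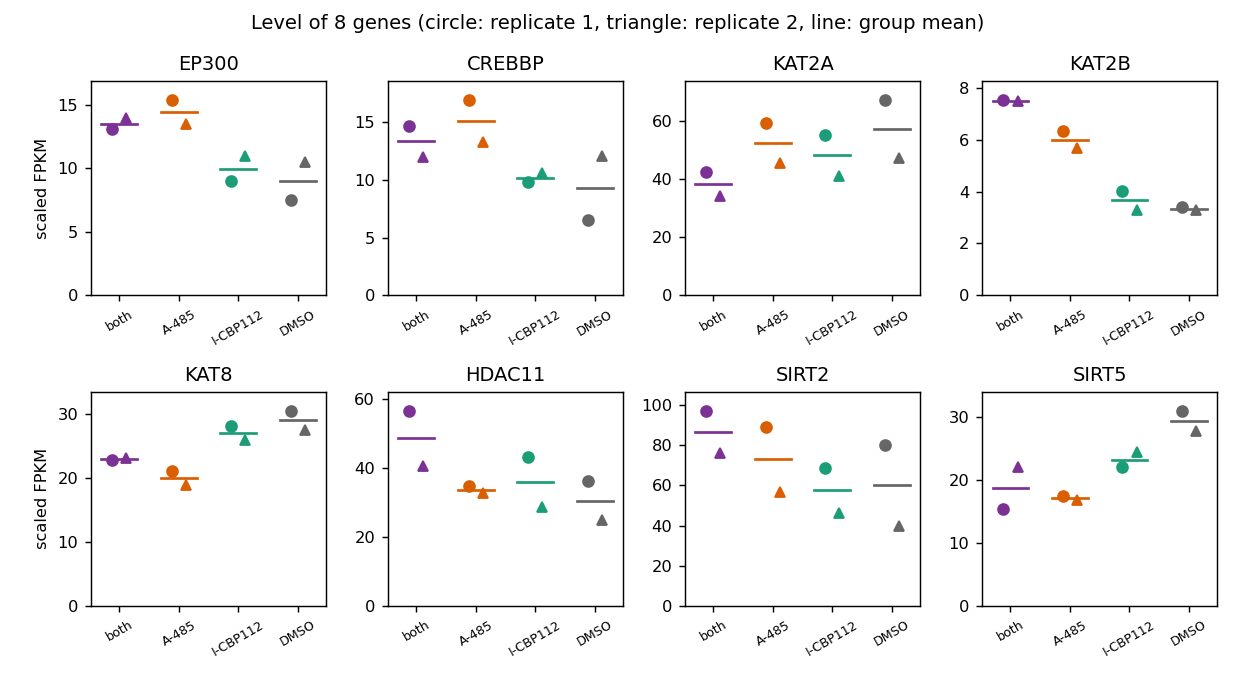
Scaled FPKM per library (linear axes from 0) of EP300, CREBBP and the 6 other genes called with or without the replicate block, by group. KAT2B at 7.53 and 7.51 with both compounds was above all other libraries, and KAT8 was lowest in the 4 libraries with A-485.

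Without regard to a test, the 4 libraries with A-485 did not overlap the 4 without for 3 members that were higher (EP300, HDAC10 and KAT2B), where 6.85% of all genes showed this, and for 1 that was lower (KAT8), where 9.4% did.

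At the level of isoforms no member was called. Of 189 member isoforms 96 reached the minimum, and limma called 0 of them in each of the 9 comparisons, with or without the block. Of all 31832 isoforms 0.336% were called with both compounds against DMSO, 0% with A-485, 0.022% with I-CBP112, 0.11% for both against I-CBP112, 0.0126% for A-485 against I-CBP112 and 0% for both against A-485. These shares were 0.311% for the averaged change with A-485, 0.0126% for that with I-CBP112 and 0.00314% for the interaction. With the block they were 0.377% with both compounds, 0% with A-485, 0.00628% with I-CBP112, 0.129% for both against I-CBP112, 0.371% for the averaged change with A-485, and 0 to 0.00314% in the other 4. Of the 96, 5 had an unadjusted p under 0.05 with both compounds against DMSO (11.1% of all isoforms did), 9 with A-485 (10.5%) and 7 with I-CBP112 (7.16%). The smallest adjusted p over member isoforms was 0.170, for KAT2B-201 in the averaged change with A-485 with the block. The share of an isoform in its gene was called for 0 of 92 member isoforms in any comparison, at a smallest adjusted p of 0.617 without and with the block, and for 0% of all 28097 isoforms in each comparison but I-CBP112 against DMSO, where it was 0.00712% without the block. For the share, 2, 3 and 10 of the 92 had an unadjusted p under 0.05 with both compounds, A-485 and I-CBP112 against DMSO (3.93%, 4.52% and 6.06% of all isoforms did). In 16 of the 30 genes the same isoform led in all 8 libraries, EP300, KAT2A and KAT2B among them with 1 listed isoform each.

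Some shares that were not called still ran with a group or a replicate number, and those named here were picked after their values were seen. KAT7-201, of 9644 bases, held 44.4 and 44.4% of the KAT7 level with both compounds, 46.1 and 28.8% with A-485, 52.8 and 48.9% with I-CBP112, and 24.4 and 10.8% with DMSO. Both DMSO libraries were the lowest. The shorter KAT7-202, of 3469 bases, was at 8.85 to 12.4 scaled FPKM in the 6 treated libraries, against 25.2 and 19.1 with DMSO. SIRT7-201 held 85.8 and 58.4% of the SIRT7 level with I-CBP112 and 97.8 to 100% in the other 6 libraries. HDAC6-207 followed the replicate number instead, with 53.3 to 62.2% of its gene in the replicate 1 libraries and 84.8 to 96.7% in the replicate 2 libraries. CREBBP-201, the longest CREBBP isoform at 10803 bases, ran from 30.9 to 71.2% with no order by group.

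**Figure D4:**
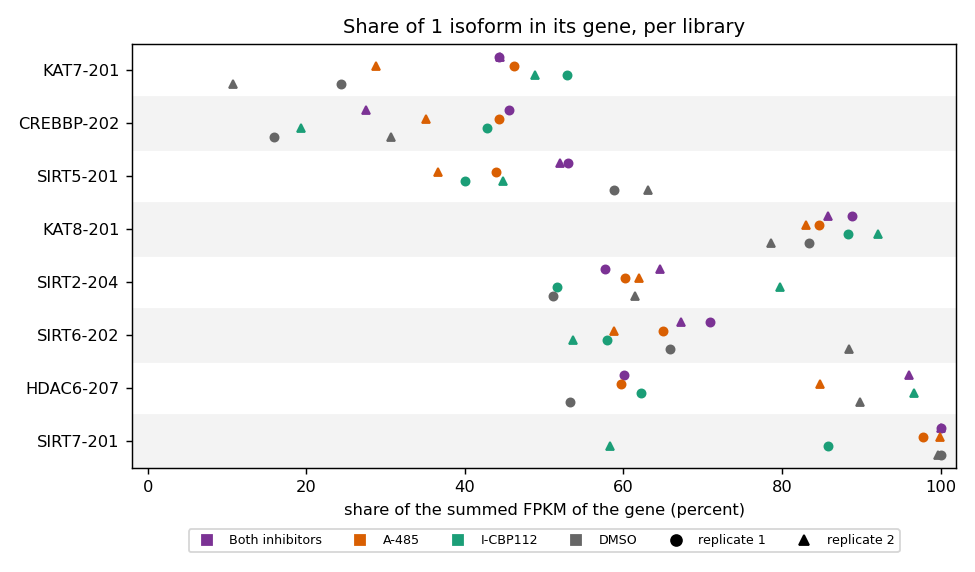
Share of 1 isoform in the summed FPKM of its gene (percent), per library, for 8 isoforms chosen after their values were seen. KAT7-201 was lowest in the 2 DMSO libraries (24.4 and 10.8%), and HDAC6-207 separated by replicate number.

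The enzymes work in complexes and need acetyl-CoA or NAD, and 115 genes of such partners were listed, of which 109 were tested. In the comparison of both compounds with DMSO 2 were higher and 3 lower, where 10.3% of all genes were called, and in that of A-485 alone 1 was higher, where 4.68% were. With I-CBP112 alone the smallest adjusted p was 0.323 (limma), and for both compounds against I-CBP112 1 was lower, where 2.17% of all genes were called. For the averaged change with A-485, 2 were higher and 3 lower, where 10.1% of all genes were. With the block the genes called in either direction were 13 with both compounds, 7 with A-485, 3 for both against I-CBP112 and 14 for the averaged change with A-485, beside 19%, 13.3%, 5.24% and 19.1% of all genes. RUVBL1, an ATPase of the TIP60 complex that KAT5 serves, stood at 91.5 and 84.5 scaled FPKM with both compounds, at 94.3 and 90.9 with A-485, at 134 and 144 with I-CBP112, and at 191 and 131 with DMSO. The 4 libraries with A-485 were below the 4 without, at a log2 fold change of -0.84 ± 0.22 with both compounds (limma, adjusted p = 0.0488) and an averaged change with A-485 of -0.71 ± 0.16 (0.0284). MEAF6, a subunit of the TIP60, MOZ and HBO1 complexes, was at -0.82 ± 0.17 with both compounds (limma, adjusted p = 0.0233). SUPT7L, a core subunit of the SAGA complex in which GCN5 and PCAF work, rose by 0.53 ± 0.13 in the averaged change with A-485 (limma, adjusted p = 0.0395), as did ING2, a reader subunit of the SIN3 deacetylase complex, by 0.60 ± 0.14 (0.0370). ING2 also rose with both compounds, by 0.95 ± 0.20 (limma, adjusted p = 0.0247).

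On the corepressor side, TBL1X, a subunit of the NCoR complex that holds HDAC3, stood at 13.8 and 14.2 scaled FPKM with both compounds, at 20.3 and 15.9 with A-485, at 27.7 and 20.6 with I-CBP112, and at 34.9 and 27.1 with DMSO. The combination was below all other libraries, with a log2 fold change of -1.08 ± 0.22 (limma, adjusted p = 0.0206). MIER1, a scaffold that recruits HDAC1 and HDAC2, stood at 6.78 and 6.49 with both compounds, 6.54 and 7.58 with A-485, 6.45 and 5.48 with I-CBP112, and 3.17 and 3.96 with DMSO. It was called with both compounds (0.75 ± 0.19; limma, adjusted p = 0.0434) and with A-485 (0.82 ± 0.19; 0.0496). No gene of acetyl-CoA supply was called without the block (7 tested). Of 8 tested genes of NAD supply NNMT, which methylates nicotinamide, was called, with 0.0476 and 0.175 scaled FPKM with both compounds, 0.792 and 1.32 with A-485, 1.71 and 2.88 with I-CBP112, and 0.923 and 1.71 with DMSO. Its log2 fold change for both compounds against I-CBP112 was -1.55 ± 0.28 (limma, adjusted p = 0.0351), on a scale where the added 1 understates changes of so low a gene.

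**Figure D5:**
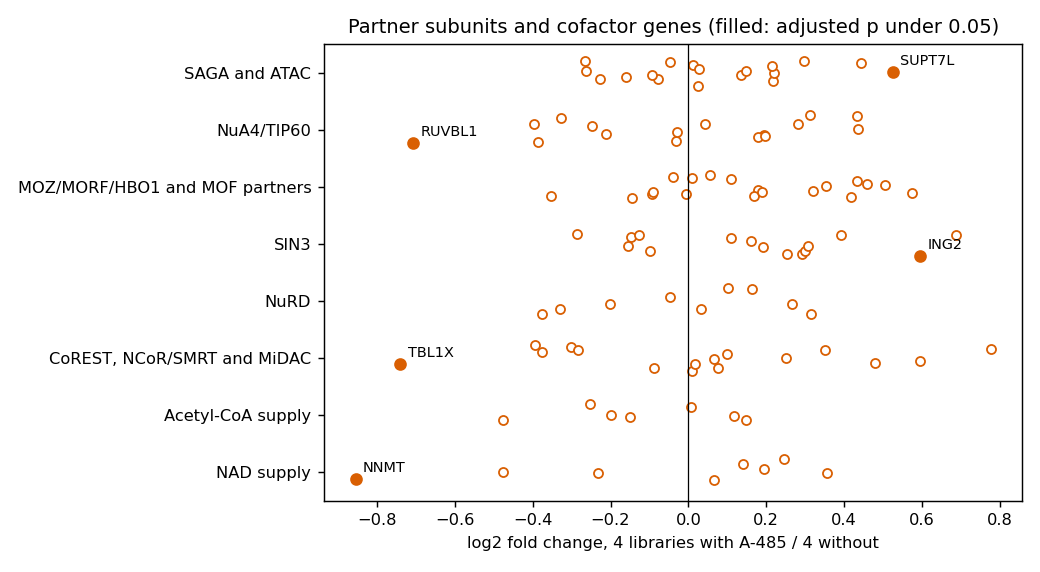
Averaged log2 fold change with A-485 (4 libraries with, 4 without) of the 109 tested partner and cofactor genes, by list. Filled points mark an adjusted p under 0.05 (limma): SUPT7L at 0.53 and ING2 at 0.60 above 0, RUVBL1 at -0.71, TBL1X at -0.74 and NNMT at -0.85 below it.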

How the data were processed

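RNA-seq was measured in 8 libraries, 2 per group. The authors' deposited table calls its values counts, yet 78.3% of them had a fractional part, so it was read as FPKM per Ensembl transcript, and the limma test planned for normalized values was used. Per the submitters' processing notes, the tools were STAR, DESeq2, DESeq and Cufflinks, on hg19 or GRCh37. The labels give neither their roles nor their versions. Total RNA was extracted with Trizol and DNase, per the labels' protocols. How depth was estimated: 1 fragment was taken as the step of which low values were most nearly whole multiples. These values came from single-isoform transcripts of at least 3000 bases. At that step 77.9 to 88.4% of them lay within 0.1 of a whole number. The step was chosen on the same values, so this percentage is not a separate check of the depth. Reads on the listed transcripts were 77.6 to 83.9% of the normalizing fragments in replicate 1 and 18.1 to 41.7% in replicate 2, at an assumed fragment length of 200 bases.

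Transcript identifiers were named through GENCODE release 29, which follows GRCh38 and served for names, lengths and shared exons (91.0% of 81591 matched). Promoter windows came from RefSeq on GRCh38.p14. Coordinates of the authors' build were not used. Gene sums were scaled to 1e+06 per library and by a trimmed mean of log ratios (30% of ratios, 5% of levels). After scaling the median of all genes lay between -0.02 and 0.04 in each comparison. Unscaled, it was 0.58 with both compounds, 0.35 with A-485 and 0.05 with I-CBP112 against DMSO. Genes with a scaled value of at least 1 in at least 2 libraries (11876) entered limma 3.58.1 (R 4.3.3, trend and robust) as log2(scaled FPKM + 1). Each group had 1 mean, 4 residual degrees of freedom remained, and p-values were adjusted over all genes by Benjamini-Hochberg at 0.05. Fold changes on this scale understate those of low genes. The 9 comparisons were the 6 pairs of groups, the change with each compound averaged over the other, and the interaction. The scripts were tested on simulated data.

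Numbers 1 and 2 paired the libraries: their differences correlated at 0.144 to 0.425 across genes in all 6 pairs of groups, and the deposited columns of one number share a prefix. The fit with the number as a block had 3 residual degrees of freedom. Named members were EP300, CREBBP and all those called with or without the block; from the partner lists, those called without it. The members and the lists were chosen with earlier results of these data known. HDAC4, HAT1, HDAC10, SIRT4 and other members outside that rule were described after their values were seen. Alternatives changed the block, the scaling, the pseudocount (0.1 or 5), the filter (none or 5), the estimate of the spread, the test (voom on approximate fragments) and the libraries (each left out in turn, where a lone library is assumed to vary like the other groups).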

Additional observations from a re-analysis of the deposited data

How the results depend on the processing

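With the replicate number as a block, members called went to 4 with both compounds, 3 with A-485, 1 for both compounds against I-CBP112 and 5 for the averaged change with A-485, from 1, 0, 0 and 1 without it. The partner genes called went to 13, 7, 3 and 14 with the block, from 5, 1, 1 and 5. Genes called among all 11876 went to 2255, 1577 and 2266 with the block for both compounds, A-485 and the averaged change, from 1224, 556 and 1200, and to 2273, 1897 and 2429 with voom. For I-CBP112 alone they were 0 without the block, 1 with it, 1 with voom and 5 with the stricter filter. With no filter A-485 alone had 355. Voom called 2, 3, 1 and 5 members in the 4 comparisons named first, and a pseudocount of 5 called 1 for both against I-CBP112. In that comparison genes called among all 11876 were 258 without the block and 622 with it. They ran from 0 to 622 over the alternatives that kept all libraries. With no scaling between libraries 0 members were called with both compounds and 0 for the averaged change, and genes called were 0, 0 and 1. With 1 library left out, the number of members called moved in at least 1 fit of each of the 4 comparisons named first. No share of all genes was set beside it.

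Of 323 refits of 19 gene results, 286 kept direction and side of the threshold, 26 passed it in addition, 5 lost it and 6 turned sign. The 19 were picked as called with or without the block, with EP300 and CREBBP against DMSO added. The block was among the refits, so the 11 of the 26 that passed with it were set by this choice. The block, the filters and the estimate of the spread leave a fold change as it was, so its direction could not turn there. Unscaled, KAT2A with both compounds was 0.19, SIRT5 0.0795, and the averaged change with A-485 was 0.19 for KAT8 and 0.0352 for SIRT5. The unscaled medians of all genes were 0.58 with both compounds and 0.45 for the averaged change. Without DMSO replicate 1 the change with I-CBP112 was -0.0714 for EP300 and -0.23 for CREBBP, and without DMSO replicate 2 it was 0.41 and 0.62. With 1 library left out, KAT2B with both compounds ran from 0.97 to 0.99 and its averaged change with A-485 from 0.73 to 0.84. The cause of these differences was not tested. In the replicate 2 libraries fewer fragments lay on the listed transcripts, so the values of low members there rested on few fragments. Isoform counts of members were 0 under each alternative run.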
